A study of Caenorhabditis elegans with 24 samples.

Results

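VC3201 worms were compared with N2 worms while both strains were fed cco-1 RNAi bacteria. The comparison rests on 6 of the 24 libraries of the series, 3 of each strain, taken by their labels, and it covers the whole deposited gene table. Of the 16927 genes in that table, 14561 averaged 1 CPM (read counts scaled by library total) or more in 1 or more groups of the series and were tested. N2 is the wild-type laboratory strain of the nematode Caenorhabditis elegans, labelled WT. VC3201 is labelled as a mutant of atfs-1, and the labels give the strain name in place of an allele, so the atfs-1 mutation and any other difference of that strain from N2 cannot be told apart. Both groups ate a mixture of 50% cco-1 RNAi and 50% control RNAi bacteria from the first larval stage, and were collected at L4 or young adulthood after 2.5 days at 20 °C. RNA came from whole worms and was enriched for polyA. The same strain contrast on control RNAi alone, from 6 other libraries with the same age and temperature, is used where it shows how the contrast under cco-1 RNAi differs.

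ATFS-1 is a bZIP transcription factor that is normally imported into mitochondria and degraded there. When import fails, it reaches the nucleus and raises genes for mitochondrial chaperones, proteases, import, detoxification and innate immunity, a program called the mitochondrial unfolded protein response. cco-1 encodes a subunit of respiratory complex IV, and its RNAi is a standard way to start this response in worms and to lengthen their life. The strain contrast under cco-1 RNAi therefore asks which genes depend on the strain while the respiratory chain is depleted.

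The deposited values are CPM that had been quantile-normalized over the 24 libraries, which removes library totals, so depth was read from tied low values. Under cco-1 RNAi 18 to 19 reads made 1 CPM in the N2 libraries, and 17 to 19 reads did in the VC3201 libraries. The control RNAi libraries were shallower, with 12 to 14 reads for 1 CPM in N2 and 8 to 10 in VC3201. Replicates under cco-1 RNAi correlated at r = 0.996 to 0.997 across genes within a strain and at 0.972 to 0.975 between strains. The deviation of a library from its group mean was largest in VC3201 replicate 2, with an SD of 0.13 on the log2 scale against 0.106 to 0.119 in the other 5 libraries. The labels do not say whether the 3 libraries of a group came from separate cultures, so the p-values measure the spread between these samples. In whole-worm RNA, fewer cells of a type and less RNA per cell cannot be told apart.

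atfs-1 itself was lower in VC3201. Its level was 85.5, 81.0 and 84.4 CPM in the N2 libraries and 29.3, 23.9 and 25.4 CPM in the VC3201 libraries, so the strains did not overlap. The log2 difference, here always VC3201 minus N2 in the mean of log2(CPM + 1), was -1.64 (SE 0.06, adjusted p = 1.6e-18 by limma, Benjamini-Hochberg over all genes tested). Transcript of the gene (chromosome V, 14193663 to 14197700, Ensembl annotation of WBcel235) thus remained present in the mutant strain, and whether it codes for a working protein was not measured. On control RNAi the difference was -1.76, and the interaction, which is the strain difference under cco-1 RNAi minus that on control RNAi, was 0.12 (adjusted p = 0.31).

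The RNAi target did not pass the test between the strains. cco-1 read 124, 134 and 124 CPM in N2 and 112, 127 and 135 CPM in VC3201 under cco-1 RNAi, with overlapping libraries and a log2 difference of -0.03 (SE 0.08, adjusted p = 0.73). On control RNAi it read 267 to 333 CPM in N2 and 333 to 354.4 CPM in VC3201 (0.25, interaction -0.29, both called). elt-2, the intestinal GATA factor that other groups of the series target, read 14.1, 14.9 and 12.5 CPM in N2 and 18.7, 16.9 and 21.1 CPM in VC3201. The libraries did not overlap, but the difference of 0.42 (SE 0.21) missed the threshold (adjusted p = 0.087), and it passed with limma-voom and with a fit of only these 6 libraries.

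Across all genes, 3878 were higher in VC3201 (26.6% of those tested) and 4248 were lower (29.2%) at an adjusted p under 0.05. Which direction held more genes depended on the scaling: with libraries rescaled by their median ratio 4296 were higher and 3818 lower. In total 55.8% of genes were called, and 58.2% had no overlap between the 6 libraries. Most differences were small, with a 5th to 95th percentile of -0.81 to 0.78 and a median of -0.01. A minimum change of 2-fold left 396 genes higher (2.72%) and 446 lower (3.06%). A list of genes in which similar shares passed in each direction therefore differs little from the table as a whole.

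The strain contrast on control RNAi called 3895 genes higher (26.7%) and 3284 lower (22.6%). No overlap between its 6 libraries was seen for 53.4% of genes, and a minimum of 2-fold left 122 higher (0.838%) and 427 lower (2.93%). No library is shared between both contrasts. The 1719 genes higher in both made up 44.3% of those higher under cco-1 RNAi and 44.1% of those higher on control RNAi. The 1853 genes lower in both made up 43.6% and 56.4%, respectively. Opposite calls were found for 888 genes, of which 537 were higher under cco-1 RNAi and lower on control RNAi and 351 the reverse. The interaction passed the threshold for 2448 genes in the positive direction (16.8%) and for 3371 in the negative direction (23.2%), and with a minimum of 2-fold for 508 (3.49%) and 187 (1.28%). The excess of negative calls rested on the scaling, since median-ratio rescaling gave 2730 positive and 2704 negative interactions.

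Mitochondrial chaperones, proteases and prohibitins, by which the response is usually read, were mostly lower in VC3201 under cco-1 RNAi. Of 14 tested, 11 fell and 1 rose, with a median of -0.35 against -0.01 over all genes. On control RNAi 4 of them fell and 3 rose, with a median of 0.00, and the interaction was negative and called for 11 of 14. hsp-6, the mitochondrial HSP70, read 729, 736 and 777 CPM in N2 and 495, 451 and 488 CPM in VC3201. The 3 VC3201 libraries were all below the N2 libraries, at a log2 difference of -0.64 (SE 0.05, adjusted p = 6.5e-11). Its difference on control RNAi was -0.35, with 610, 587 and 593 CPM in N2 and 468, 475 and 460 CPM in VC3201, so the strain gap was wider under cco-1 RNAi (interaction -0.29, adjusted p = 0.0035). hsp-60, the chaperonin that folds matrix proteins, read 198, 191 and 206 CPM in N2 and 146, 150 and 158 CPM in VC3201. No library overlapped, and the difference of -0.39 (SE 0.07, adjusted p = 1.8e-05) stood against 0.03 on control RNAi (interaction -0.41, adjusted p = 0.0011).

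The other members of that list followed by role. dnj-10, a DnaJ cochaperone, fell by 0.63 on the log2 scale, and Y22D7AL.10 fell by 0.25. Among the proteases of the inner membrane, spg-7 fell by 0.51, ymel-1 by 0.50 and ppgn-1 by 0.32. The Lon protease of the matrix, C34B2.6 (lonp-1), fell by 0.22. Its ClpP protease, clpp-1, had a difference of -0.11 that missed the threshold (adjusted p = 0.22 by limma). D2030.2 fell by 0.49. The prohibitins phb-1 and phb-2, ring-forming scaffolds of the inner membrane, fell by 0.39 and 0.19. K07A3.3 rose, from 3.31, 3.78 and 3.504 CPM in N2 to 6.76, 7.32 and 7.80 CPM in VC3201 (log2 difference 0.87, adjusted p = 2.8e-07), and it was also higher on control RNAi (0.64). hsp-75, the mitochondrial HSP90 homolog, had a difference of 0.02 that was not called (adjusted p = 0.82) and that turned negative without VC3201 replicate 2.

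Protein import showed a similar downward shift from control to cco-1 RNAi, with opposite calls in 2 of 17 genes. Of 17 import and presequence-processing genes, 9 fell and 2 rose under cco-1 RNAi (median -0.21), while 9 rose and none fell on control RNAi (median 0.24), and the interaction was negative and called for 15. mppa-1, the alpha subunit of the processing peptidase that removes import signals, read 36.4, 38.6 and 39.4 CPM in N2 and 23.9, 22.1 and 22.7 CPM in VC3201 under cco-1 RNAi. On control RNAi it read 30.1, 29.5 and 31.5 CPM in N2 and 37.02, 39.96 and 37.2 CPM in VC3201. Neither pair of groups overlapped, and the strain difference changed sign, from 0.31 on control RNAi to -0.71 under cco-1 RNAi (interaction -1.03, adjusted p = 5.4e-11). E04A4.5 (timm-17B.1), ZK370.8 (tomm-70), tin-9.1, tin-44, timm-23, tomm-40, tin-13 and tomm-7 were the other genes that fell, by 0.56 to 0.21 on the log2 scale. tomm-7 lost its call without any 1 of N2 replicates 1 and 2 and VC3201 replicates 1 and 3. The receptor gene tomm-20 rose, from 45.0, 47.3 and 49.04 CPM to 60.04, 69.9 and 75.4 CPM (0.52), but by less than on control RNAi (1.26, interaction -0.74, adjusted p = 5.8e-06). D2096.1 (timm-17B.2) rose as well (0.52). mppb-1, ddp-1, tin-10, dnj-21, gop-3 and tomm-22 were not called, with differences of -0.16 to 0.11.

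**Figure D1:**
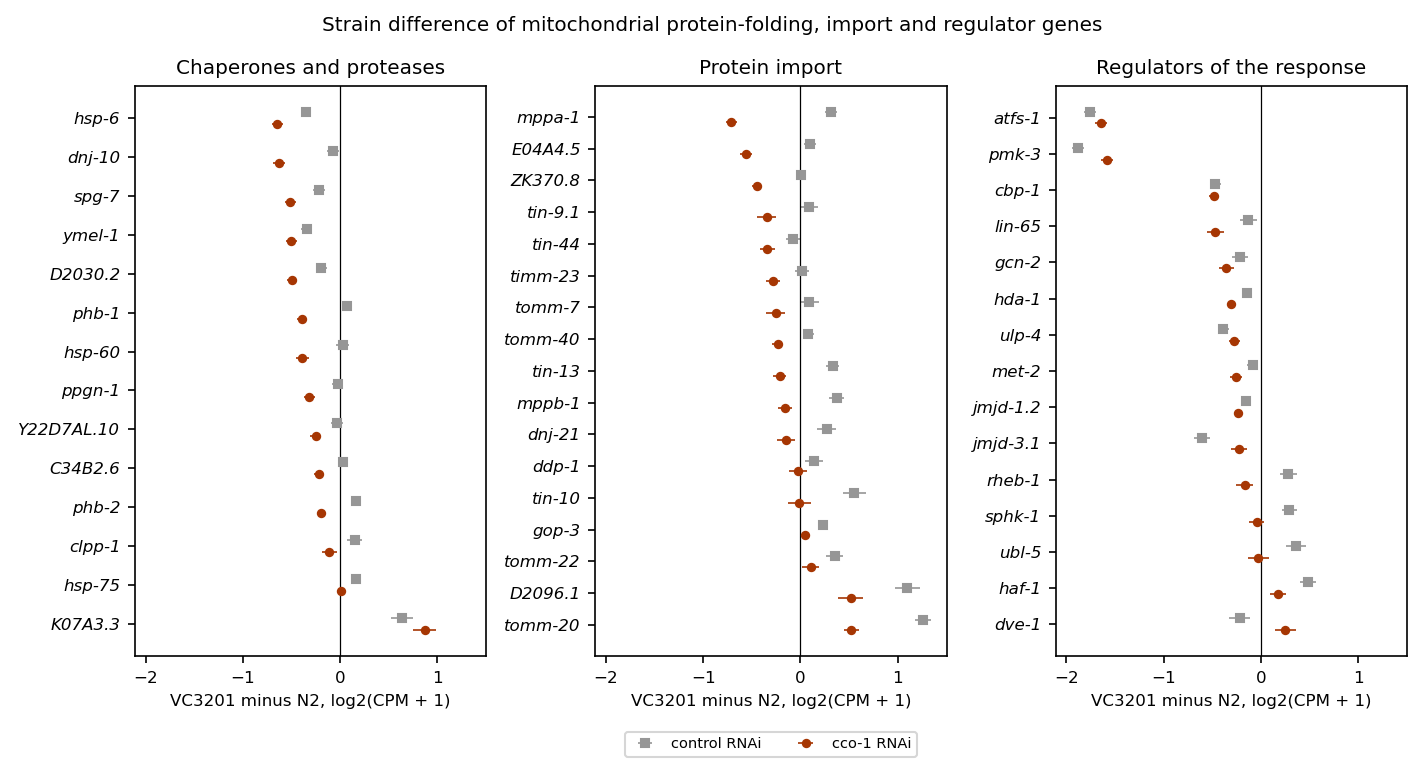
Log2 difference between VC3201 and N2 (VC3201 minus N2, log2(CPM + 1) scale) for each tested gene of 3 lists, with points at the fitted difference and bars of 1 SE, under cco-1 RNAi (circles) and on control RNAi (squares), 3 libraries a group. Under cco-1 RNAi 11 of 14 chaperone and protease genes, 9 of 17 import genes and 10 of 15 regulators were called lower.

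Regulators of the response were lower more often than higher, 10 against 1 of 15, with a median of -0.26. They include atfs-1 itself. On control RNAi 8 fell and 4 rose. pmk-3, a p38-type kinase, read 50.3, 47.9 and 46.4 CPM in N2 and 16.17, 13.9 and 16.39 CPM in VC3201, with no overlap (-1.58, SE 0.06). Its neighbours pmk-2 and pmk-1 on chromosome IV, named after their values were seen, also fell, by 1.96 and 1.16. All of pmk-1, pmk-2 and pmk-3 were lower on control RNAi too (-1.18, -1.68 and -1.88). The chromatin regulators cbp-1 (-0.48), lin-65 (-0.47), hda-1 (-0.30), met-2 (-0.26), jmjd-1.2 (-0.23) and jmjd-3.1 (-0.22), the kinase gcn-2 (-0.36) and the SUMO protease ulp-4 (-0.27) were the rest that fell. dve-1, a homeodomain factor of the response, was higher by 0.25 (adjusted p = 0.049), a call that was lost without any 1 of the 6 libraries other than VC3201 replicate 2. The call of jmjd-3.1 was lost without N2 replicate 3, VC3201 replicate 2 or VC3201 replicate 3. haf-1, ubl-5, rheb-1 and sphk-1 were not called. Of 16 stress and longevity transcription factors 2 rose and 4 fell, and 4 and 4 without VC3201 replicate 2. Among 27 bZIP factors, the family of ATFS-1, 10 rose and 7 fell under cco-1 RNAi, whereas 2 rose and 15 fell on control RNAi. zip-8 fell the furthest in this list, from 4.55, 4.04 and 4.59 CPM to 0.944, 0.310 and 0.336 CPM (-1.84), and jun-1 rose from 31.2, 30.1 and 29.6 CPM to 55.2, 43.8 and 56.1 CPM (0.74).

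Mitochondrial ribosomal proteins moved by small amounts. Of 66 tested, 22 fell (33.3%) and 2 rose (3.03%) under cco-1 RNAi with a median of -0.08, and 49 rose and none fell on control RNAi with a median of 0.23. The interaction was negative and called for 46. The count of members that fell was 13 without N2 replicate 1, 15 without VC3201 replicate 2 and 16 when libraries were rescaled by their median ratio, and the count that rose was 4 without VC3201 replicate 1. mrps-31, a small-subunit protein, read 16.43 to 17.3 CPM in N2 and 11.8, 11.8 and 11.2 CPM in VC3201 (-0.49, adjusted p = 2.5e-06), against a difference of 0.28 on control RNAi. Its libraries did not overlap in either feeding, and their order was reversed between the feedings.

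Nuclear genes of the respiratory chain were higher more often than lower. Of 37 nuclear subunit genes without cco-1, 22 rose (59.5%) and 5 fell under cco-1 RNAi, with a median of 0.16, and on control RNAi 15 rose and 5 fell. atp-3, an ATP synthase subunit, read 471, 491 and 470 CPM in N2 and 584, 582 and 610 CPM in VC3201 (0.31), and gas-1, a complex I subunit, read 173, 170 and 177 CPM against 115, 121 and 129 CPM (-0.51). Neither gene overlapped between strains. Of the 11 subunit genes of mitochondrial DNA, 3 rose and 3 fell under cco-1 RNAi (27.3% each, near the shares of the whole table) and 10 rose on control RNAi, with a called negative interaction for 8. The count that rose was 1 without any 1 of N2 replicates 2 and 3 and VC3201 replicates 1 and 2, with no filter on low values, and with only the groups compared. nduo-2, a complex I subunit, read 37.9, 32.3 and 31.8 CPM in N2 and 21.1, 19.1 and 17.3 CPM in VC3201 (-0.80), and on control RNAi 20.5, 20.8 and 18.2 CPM against 24.1, 29.2 and 33.5 CPM (0.51, interaction -1.31, adjusted p = 7.4e-06). nduo-3 moved alike (-0.88 under cco-1 RNAi and 0.46 on control RNAi), ctc-2 rose in both (0.58 and 0.91), and the fall of nduo-5 (-0.37) was not called without N2 replicate 1 or without VC3201 replicate 3. These RNAs pass a polyA enrichment before sequencing, and its part in the values was not tested. For the machinery of fission, drp-1, the dynamin that cuts mitochondria, fell from 178, 178 and 179 CPM to 126, 130 and 123 CPM (-0.50, adjusted p = 2.5e-11), with a control difference of 0.03 and an interaction of -0.52. Over the 16 genes of fission, fusion and mitophagy, 5 fell (31.2%) and 3 rose (18.8%), with a median of -0.02. Over all genes tested 29.2% fell and 26.6% rose.

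In central carbon metabolism, glycolytic genes were lower more often than higher. Of 19 glycolytic genes, 10 fell (52.6%) and 4 rose, with a median of -0.20, against 5 that fell and 2 that rose on control RNAi. Without VC3201 replicate 2, 2 rose. aldo-1, an aldolase, read 337, 346 and 353 CPM in N2 and 132, 126 and 153 CPM in VC3201, with no overlap (-1.33, SE 0.06, adjusted p = 3.4e-17). On control RNAi the difference was -0.31, from 142 to 144 CPM in N2 to 108 to 120 CPM in VC3201, and the interaction was -1.02. ldh-1 (-0.60), the lactate dehydrogenase, enol-1 (-0.54), the enolase, and gpd-2 (-0.50), a glyceraldehyde-3-phosphate dehydrogenase, fell as well. In the tricarboxylic acid cycle 6 of 23 genes rose and 6 fell (26.1% each), near the shares of the whole table. icl-1, the enzyme of the glyoxylate bypass, rose from 300, 352 and 343 CPM to 907, 766 and 887 CPM (1.36, adjusted p = 1.2e-11), whereas its control difference was -0.01, and the aconitase aco-2 fell from 781, 773 and 813 CPM to 517, 550 and 518 CPM (-0.58). Of 12 genes of the propionate shunt and branched-chain breakdown 3 rose and 4 fell, and acdh-1, an acyl-CoA dehydrogenase of that shunt, fell by 0.32, less than on control RNAi (-0.68, interaction 0.37, adjusted p = 0.0053).

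Among called genes without overlap that averaged 10 CPM or more in either strain, C38D9.2 had the lowest difference. This protein-coding gene without a named role, at chromosome V, 17567150 to 17571742, read 497, 488 and 518 CPM in N2 and 0.997, 1.22 and 0.942 CPM in VC3201. The log2 difference was -7.93 (SE 0.07, adjusted p = 1.2e-33), and on control RNAi it was -7.26. F28H1.1 read 21.8, 20.2 and 20.2 CPM in N2 and had 0 reads in all 3 VC3201 libraries, at least 101.1-fold lower against a floor of 3 reads per library, and it stood at 0.022 CPM in all 3 VC3201 libraries on control RNAi as well. F22B3.7 was at 12.56, 9.14 and 11.7 CPM in N2 and at 0 reads in VC3201 under cco-1 RNAi, at least 54.3-fold lower, but on control RNAi N2 itself held 0.0808 CPM or less.

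Several of these genes were high in N2 under cco-1 RNAi and low in the other 3 groups. asp-8, an aspartyl protease, read 105, 103 and 106 CPM in N2 and 4.92, 4.68 and 4.74 CPM in VC3201 under cco-1 RNAi, and 6.82, 6.81 and 8.72 CPM and 5.10, 7.52 and 6.16 CPM on control RNAi. The N2 libraries under cco-1 RNAi thus stood above the other 9 libraries of the 4 groups, with an interaction of -3.97 (adjusted p = 1.9e-18). The C-type lectin clec-4 showed the same order, at 57.1, 62.8 and 62.2 CPM in N2 and 2.77, 2.13 and 2.33 CPM in VC3201 under cco-1 RNAi, against 5.01 to 8.18 CPM in the 6 control libraries (interaction -4.41, the lowest among genes averaging 10 CPM or more in 1 of the 4 groups). Another lectin, clec-17, read 28.4, 24.7 and 24.8 CPM in N2 against 0.732, 0.408 and 0.666 CPM in VC3201, and at most 1.08 CPM in the control libraries.

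For ugt-62, a UDP-glucuronosyltransferase that attaches sugar to small molecules, the N2 libraries read 413, 417 and 419 CPM and the VC3201 libraries 30.3, 33.3 and 30.8 CPM. The log2 difference of -3.69 (SE 0.06, adjusted p = 2.3e-28) compares with -1.58 on control RNAi, where N2 read 69.0 to 71.7 CPM and VC3201 22.9 to 23.1 CPM. cyp-33C8, a cytochrome P450, read 108, 103 and 103 CPM in N2 and 9.84, 11.8 and 10.8 CPM in VC3201 (-3.17, control -1.33). cdr-2, named for its family's response to cadmium, read 83.2, 80.2 and 71.1 CPM against 6.95, 5.44 and 6.33 CPM (-3.45, control -1.33). In these 3 genes the strains did not overlap in either feeding, and the interaction was called and negative. R08E5.3 (-2.92), B0205.13 (-3.91), F58G6.9 (-3.87), C38D9.13 (-3.65), C30G12.1 (-2.91) and F15D4.5 (-2.88) complete the 15 lowest differences among called genes without overlap that averaged 10 CPM or more in either strain.

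**Figure D2:**
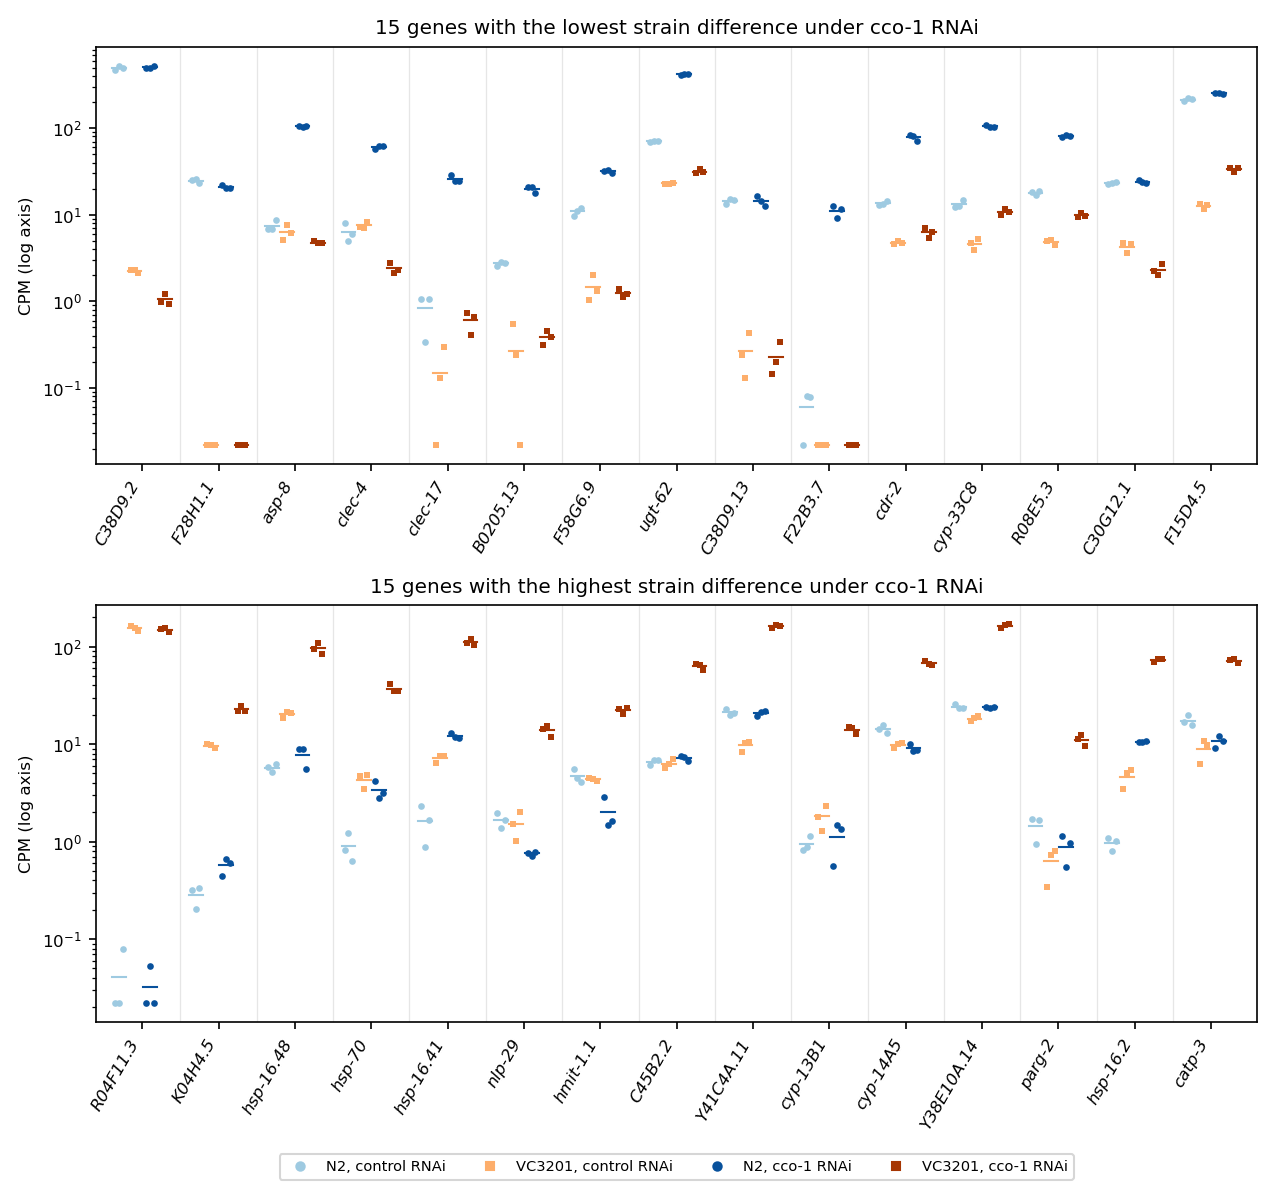
CPM (log axis) of the 15 genes with the lowest and the 15 with the highest log2 difference between VC3201 and N2 under cco-1 RNAi, among called genes that averaged 10 CPM or more in either strain and had no overlap. Points are libraries, 3 a group, short lines are group means, and points at 0.022 CPM are libraries with 0 reads; asp-8 and clec-4 stand apart in N2 under cco-1 RNAi, hsp-16.41 and nlp-29 in VC3201 under cco-1 RNAi.

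Small heat shock proteins were among the genes that were highest in VC3201 relative to N2. hsp-16.48 read 8.85, 8.90 and 5.52 CPM in N2 and 95.5, 110 and 83.5 CPM in VC3201 under cco-1 RNAi (3.49, SE 0.14, adjusted p = 6.7e-18). hsp-16.41 read 13.003, 11.9 and 11.5 CPM against 110, 120 and 103 CPM (3.09), and hsp-16.2 read 10.6, 10.4 and 10.7 CPM against 69.5, 75.6 and 74.7 CPM (2.68). These 3 genes encode cytosolic chaperones that hold unfolding proteins, and reads may be shared with near-identical copies such as hsp-16.1, hsp-16.11 and hsp-16.49, which were not analysed here. hsp-70, a cytosolic HSP70 that heat induces, read 4.19, 2.81 and 3.17 CPM against 41.9, 34.8 and 35.1 CPM (3.13). All 4 were higher on control RNAi too, by 1.497 to 1.67, and their interactions of 1.17 to 1.83 were called. Of 16 cytosolic heat shock genes 10 rose and 2 fell, with a median of 0.40, while hsf-1, the heat shock factor, fell by 0.33 (93.0, 95.7 and 97.5 CPM in N2, 79.7, 69.8 and 78.3 CPM in VC3201).

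The other 11 highest differences were those of transporters, enzymes, a secreted peptide and genes without a named role. R04F11.3 (chromosome V, 12314919 to 12317180), without a named role, read 0.022, 0.0532 and 0.022 CPM in N2, which is 0, 1 and 0 reads, and 152.4, 156 and 141 CPM in VC3201, a gap that was as wide on control RNAi (0.022 to 0.0789 CPM against 145 to 165 CPM). nlp-29, an antimicrobial peptide of the epidermis, read 0.764, 0.716 and 0.788 CPM in N2 and 14.5, 15.5 and 11.9 CPM in VC3201 (3.08, adjusted p = 3.7e-16), and on control RNAi all 6 libraries lay between 1.02 and 2.01 CPM. hmit-1.1, a myo-inositol transporter, read 2.86, 1.49 and 1.62 CPM against 22.7, 20.6 and 23.4 CPM (2.99), with a control difference of -0.08. The P450 genes cyp-13B1 (2.85) and cyp-14A5 (2.77), the poly(ADP-ribose) glycohydrolase parg-2 (2.68) and the cation-transporting ATPase catp-3 (2.65) were among the rest, and the interaction of each was called and positive. catp-3 read 9.15, 12.02 and 10.8 CPM in N2 and 72.2, 74.8 and 68.4 CPM in VC3201, and its control difference was -0.91. K04H4.5 (3.93), C45B2.2 (2.94), Y41C4A.11 (2.91) and Y38E10A.14 (2.74) have no named role.

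A small set differed strongly in both feedings. At least 4-fold differences in the same direction in both contrasts were found for 16 genes, 11 lower and 5 higher in VC3201, and for 8 of them the interaction was not called; this set was formed after values were seen. Besides C38D9.2, F28H1.1, R04F11.3 and K04H4.5 it holds lin-15B, which encodes a nuclear regulator of vulval fate and germline gene repression. lin-15B read 249, 261 and 251 CPM in N2 and 43.9, 41.9 and 45.0 CPM in VC3201 (-2.52), against -2.09 on control RNAi. lin-15A, its operon partner on chromosome X, read 103, 103 and 102 CPM against 17.3, 14.8 and 15.8 CPM (-2.62) and -1.41 on control RNAi. nekl-1, a NIMA-like kinase, read 9.32, 10.5 and 11.1 CPM against 1.60, 0.948 and 0.995 CPM, and ztf-28, a zinc finger gene, 7.90, 7.21 and 6.58 CPM against 36.9, 30.3 and 35.3 CPM. Pairs of neighbours stood in the set: F15D4.5 with F15D4.6 on chromosome II and C38D9.2 with the noncoding C38D9.13 on chromosome V. Whether these genes differ through atfs-1 or through other variants of the strain cannot be told apart.

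Lysosomal hydrolases were higher more often than lower. Of 44 lysosomal hydrolases, 20 rose (45.5%) and 10 fell (22.7%) with a median of 0.14, and on control RNAi 12 rose and 15 fell. With only the groups compared, 6 fell. The interaction was positive for 20 and negative for 6. cpr-4, a cathepsin B-like protease, read 35.6, 35.0 and 36.3 CPM in N2 and 163, 154 and 169 CPM in VC3201 under cco-1 RNAi (2.15, adjusted p = 4.5e-19). On control RNAi the order was the reverse, 212, 234 and 223 CPM in N2 and 122, 91.7 and 99.0 CPM in VC3201 (-1.096). cpr-1, a related protease, read 49.9, 58.6 and 55.5 CPM against 251, 264 and 267 CPM (2.23), with a control difference of -0.63, and asp-17, an aspartyl protease, read 2.92, 2.59 and 2.78 CPM against 17.6, 15.3 and 17.8 CPM (2.25, control 0.46). asp-8, described above, was the list's lowest member. The V-ATPase, a proton pump of lysosomes, had 6 of 21 subunits that rose (28.6%) and 2 that fell (9.52%). Its share that rose was near the 26.6% of the whole table. The count that rose was 12 when libraries were rescaled by their median ratio and 10 without VC3201 replicate 2. Autophagy genes fell, 14 of 27 with 3 that rose, in much the same numbers as on control RNAi (16 and 2). Among them epg-2, an adaptor for protein aggregates, fell from 28.7, 32.8 and 33.04 CPM to 11.5, 12.97 and 12.2 CPM (-1.30, control -1.33). sqst-1, the p62 receptor, rose from 126, 132 and 133 CPM to 354.4, 295 and 349 CPM (1.34), whereas it was lower on control RNAi (-0.63, interaction 1.96, adjusted p = 4.5e-17).

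In the endoplasmic reticulum list 10 of 21 genes fell and 3 rose, against 14 and 1 on control RNAi. The median was -0.04 under cco-1 RNAi and -0.35 on control RNAi, and the interaction was positive for 11 and negative for none. dnj-27, a folding cochaperone with thioredoxin domains, read 27.9, 30.1 and 33.7 CPM in N2 and 13.5, 15.6 and 15.2 CPM in VC3201 (-0.999), and pdi-2, a protein disulfide isomerase that also acts on collagen, read 1002, 1146 and 1168 CPM against 636, 658 and 680 CPM (-0.74). Both also fell on control RNAi (-0.95 and -0.71), and unlike those 11 genes neither had a called interaction. The stress sensors atf-6 (-0.69) and pek-1 (-0.37) fell as well.

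Detoxification families moved in both directions, as did the whole table (26.6% higher and 29.2% lower). Of 56 UDP-glucuronosyltransferases 20 rose (35.7%) and 15 fell (26.8%), against 13 and 13 on control RNAi. Of 55 cytochrome P450 genes 10 rose (18.2%) and 20 fell (36.4%), against 14 and 13 on control RNAi. Of 35 glutathione S-transferases 14 rose and 7 fell, against 9 and 1 on control RNAi. Opposite to ugt-62, ugt-26 rose from 6.79, 6.38 and 6.58 CPM to 37.4, 42.1 and 35.8 CPM (2.38, control 0.23), and ugt-24 rose from 2.37, 2.65 and 3.00 CPM to 19.3, 19.5 and 16.98 CPM (2.42). ugt-19 fell from 27.9, 27.2 and 23.7 CPM to 3.72, 3.19 and 4.03 CPM (-2.55). The libraries of the strains did not overlap in any of these 3 genes. Within the cyp-14A group on chromosome X, cyp-14A4 read 10.3, 8.5005 and 9.07 CPM in N2 and 0.145 CPM or less in VC3201, and cyp-14A1 10.1, 8.97 and 9.83 CPM against 0.371, 0.352 and 0.666 CPM, whereas cyp-14A5 on chromosome V rose. gst-24 (1.35) and gst-39 (1.06) were among the glutathione S-transferases that rose and gst-44 (-1.08) among those that fell. For antioxidant enzymes 8 of 19 fell and 4 rose: msra-1, which repairs oxidised methionine, fell from 26.6, 27.8 and 23.8 CPM to 7.89, 10.3 and 8.59 CPM (-1.45), sod-3, a mitochondrial superoxide dismutase, fell by 1.196, and the catalase ctl-2 rose by 1.09.

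Among defense genes, 33 of 111 C-type lectins rose (29.7%) and 37 fell (33.3%), close to the shares of the whole table. clec-5 rose from 10.5, 9.34 and 9.46 CPM to 36.5, 36.02 and 32.6 CPM (1.74, control -0.16), and clec-266 fell from 30.3, 32.7 and 26.5 CPM to 4.97, 4.30 and 5.47 CPM (-2.38, control -1.76). Lysozymes split, with 4 of 8 higher and 3 lower. lys-2 read 189, 175 and 153 CPM in N2 and 67.9, 66.3 and 67.2 CPM in VC3201 (-1.34), lys-7 fell by 1.53, ilys-5 read 36.9, 36.4 and 37.7 CPM against 118, 143 and 133 CPM (1.80), and lys-4 rose by 1.31. All 4 had a called interaction, negative for lys-2 and lys-7 and positive for ilys-5 and lys-4. Of 17 saposin-like proteins 8 rose and 1 fell. Epidermal antimicrobial peptides rose, 8 of 11 with 1 that fell (median 0.65), against none that rose and 4 that fell on control RNAi, and 8 interactions were positive. nlp-27 read 26.4, 28.9 and 25.2 CPM in N2 and 67.5, 83.0 and 59.1 CPM in VC3201 (1.34), and cnc-4 1.39, 0.389 and 1.21 CPM against 6.01, 5.83 and 3.63 CPM (1.64). Of 5 genes known from the intracellular pathogen response, the ubiquitin ligase components skr-3 (1.02), skr-4 (1.099) and cul-6 (0.81) rose and skr-5 (-0.55) fell.

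Yolk and lipid genes shifted as follows. Of 6 vitellogenins, the yolk proteins made by the intestine, 5 fell and none rose, with a median of -0.83, and 4 interactions were negative. vit-4 read 315, 355 and 371 CPM in N2 and 80.01, 73.8 and 81.0 CPM in VC3201 (-2.13, control -0.85), and vit-1 read 1099, 1317 and 1317 CPM against 547, 503 and 547 CPM (-1.22). vit-6 was at 19460 and 11961 CPM in the libraries of each strain, but quantile normalization fixes the value of so abundant a gene by its rank, so its spread is no measure of error. Among 22 genes of fatty acid synthesis and desaturation 8 fell and 3 rose: fat-5, a palmitoyl desaturase, fell from 7.80, 7.36 and 7.73 CPM to 2.02, 2.77 and 2.13 CPM (-1.39), and fat-3, a desaturase of polyunsaturated fats, rose from 67.1, 63.6 and 59.7 CPM to 106, 102 and 110 CPM (0.73). In fatty acid activation and beta-oxidation 19 of 44 rose and 13 fell, led by acox-5, an acyl-CoA oxidase, at 10.01, 9.68 and 11.2 CPM in N2 and 31.7, 35.9 and 28.7 CPM in VC3201 (1.55, control 0.21). Of 15 genes of the methionine cycle and phosphatidylcholine synthesis 5 fell and 2 rose: sams-1, the S-adenosylmethionine synthetase, fell by 0.49 and mthf-1 by 0.34, whereas cth-1, a cystathionine lyase, rose from 52.8, 55.8 and 51.5 CPM to 117, 111 and 112 CPM (1.07, control 0.72).

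Cuticle collagens turned between the feedings. Of 139 tested, 76 rose (54.7%) and 26 fell (18.7%) in VC3201 under cco-1 RNAi, with a median of 0.43, whereas on control RNAi 6 rose and 115 fell, with a median of -0.83. The interaction was called positive for 102 and negative for 5, and 61 collagens had opposite calls in both contrasts. col-139 read 550, 556 and 545 CPM in N2 and 2080, 2240 and 1922 CPM in VC3201 (1.91, control 0.53), and col-81 463, 495 and 504 CPM against 1850, 1887 and 1887 CPM (1.94, control 0.29). Both were far above N2 in each VC3201 library. col-135 went the other way, from 9.19, 8.29 and 7.73 CPM to 0.318, 0.145 and 0.151 CPM (-2.97). The 6 collagens of the annular furrows, dpy-2, dpy-3, dpy-7, dpy-8, dpy-9 and dpy-10, all fell under cco-1 RNAi (by 0.39 to 1.25) and all fell on control RNAi. Among the 13 other dpy, sqt, rol, bli and lon collagens 3 rose and 2 fell under cco-1 RNAi, and all 13 fell on control RNAi.

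Genes that turned by at least 2-fold each way numbered 23, and all 23 were lower in VC3201 on control RNAi and higher under cco-1 RNAi. They include 7 collagens of that list. col-145 read 37.6, 39.2 and 38.6 CPM in N2 and 112, 116 and 118 CPM in VC3201 under cco-1 RNAi (1.56), and 25.7, 28.7 and 27.3 CPM against 6.10, 7.01 and 7.45 CPM on control RNAi (-1.85). col-39 read 102, 115 and 116 CPM against 351, 433 and 397 CPM (1.81), and 52.4, 58.5 and 55.9 CPM against 20.8, 21.6 and 21.2 CPM (-1.35). For both, VC3201 was the highest of the 4 groups under cco-1 RNAi and the lowest on control RNAi. cpr-4, cnc-4, the hedgehog-related grl-21, bli-6 and ram-2 are also in the set.

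**Figure D3:**
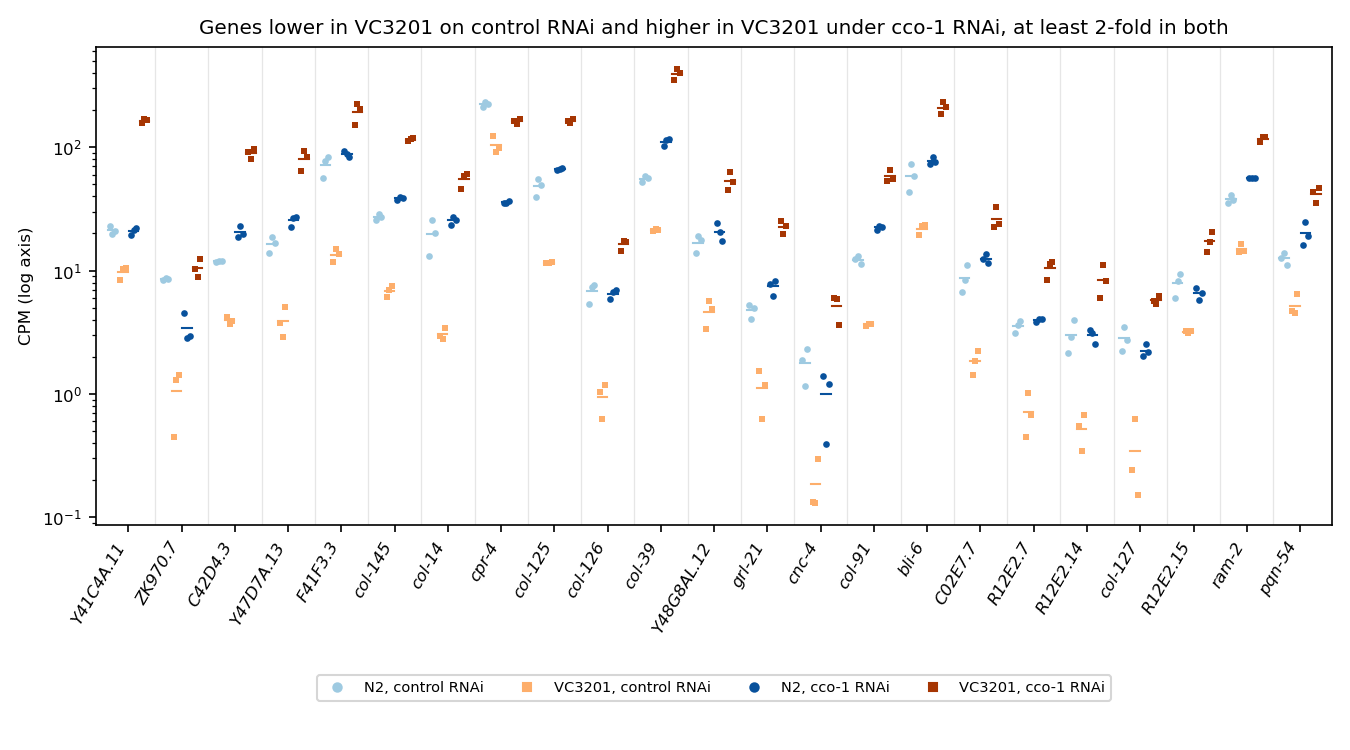
CPM (log axis) in the 4 groups for the 23 genes called lower in VC3201 on control RNAi and higher in VC3201 under cco-1 RNAi with at least 2-fold differences in both, ordered by their interaction. Points are libraries, 3 a group, and short lines are group means; for col-145 the VC3201 libraries stand at 112 to 118 CPM under cco-1 RNAi and at 6.10 to 7.45 CPM on control RNAi.

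Of 26 molting and apical matrix genes, 12 fell and 3 rose under cco-1 RNAi, against 16 and 1 on control RNAi, with medians of -0.29 and -0.56. The interaction was positive for 13 and negative for 1. The count that rose was 1 without any 1 of N2 replicates 1 and 3 and VC3201 replicate 3. noah-1, a zona pellucida protein of the apical matrix, read 23.9, 33.7 and 29.4 CPM in N2 and 9.84, 7.76 and 7.99 CPM in VC3201 (-1.65, control -2.09), fbn-1, a fibrillin-like protein, fell by 1.60, and the nuclear receptor nhr-25 fell by 1.15. Of 34 hedgehog-related genes, which in worms encode secreted cuticle-associated proteins, 8 rose and 9 fell under cco-1 RNAi, near the shares of the whole table, whereas 4 rose and 22 fell on control RNAi. The medians were 0.01 and -0.52, and the interaction was positive for 15 and negative for 2. wrt-8 rose from 0.764, 0.767 and 0.728 CPM to 3.64, 4.26 and 3.87 CPM (1.49), and wrt-10 fell from 8.74, 9.49 and 8.85 CPM to 3.12, 3.04 and 2.74 CPM (-1.34). Collagens and molting genes vary with the stage of the worm. Stage was not measured beyond the label, and its part in the result was not tested.

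Sperm genes were higher in VC3201 in either feeding. Of 59 tested, 52 rose (88.1%) and none fell under cco-1 RNAi (median 0.81), and 54 rose and 1 fell on control RNAi (median 0.87). Summed over the list of 61, they read 1321 to 1466 CPM in the N2 libraries and 2731 to 3048 CPM in the VC3201 libraries, and 724 to 893 and 1549 to 1810 CPM on control RNAi. msp-81, a major sperm protein, read 78.9, 95.3 and 76.9 CPM against 200, 204 and 214 CPM (1.30, control 1.22), and gsp-4, a sperm phosphatase, 26.4, 28.7 and 26.3 CPM against 64.1, 63.3 and 64.7 CPM (1.21). The msp genes are near-identical, so reads may have been divided among them. Germline and oocyte markers fell, 14 of 23 with 3 that rose (median -0.29), whereas 4 fell and 9 rose on control RNAi, and 17 interactions were negative. The count that rose was 1 without VC3201 replicate 2 and with only the groups compared. Their sum was 21143 to 21595 CPM in N2 and 15999 to 16785 CPM in VC3201, and all 23 had a mean above 1 CPM in every group. perm-2, an eggshell protein, read 2380, 2380 and 2265 CPM against 1381, 1168 and 1298 CPM (-0.87), perm-4 fell by 0.91, cbd-1 by 0.62 and the polarity regulator mex-5 by 0.53.

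**Figure D4:**
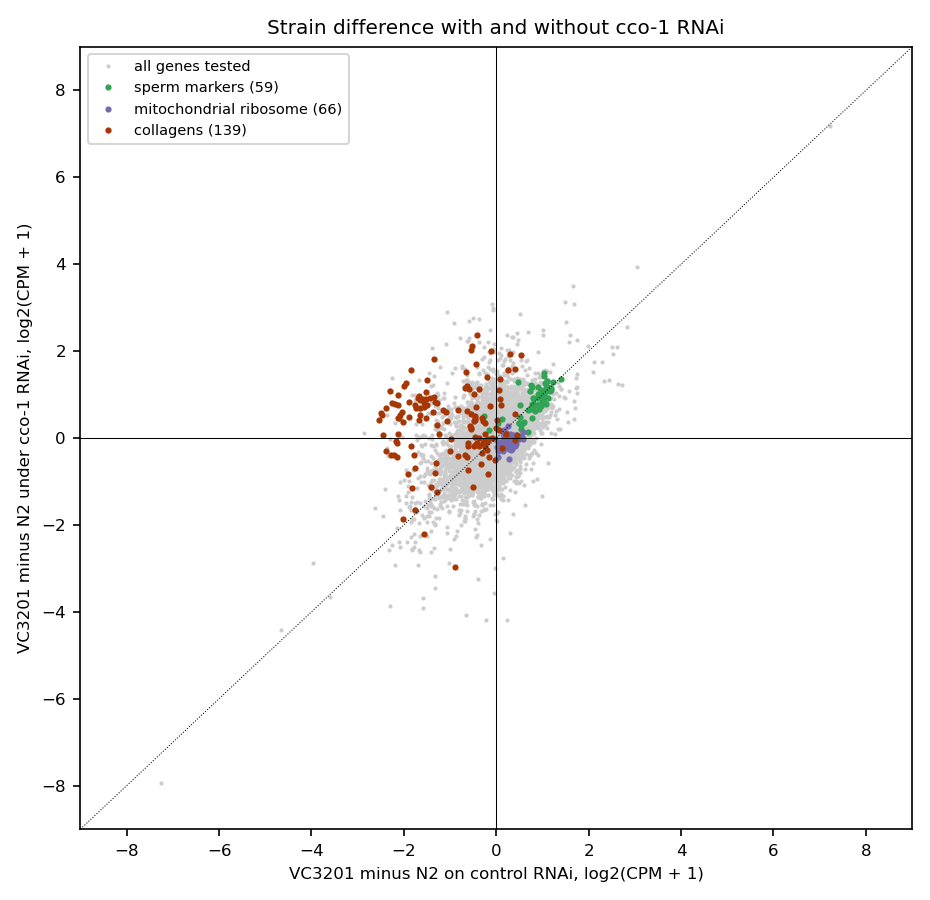
Log2 difference between VC3201 and N2 under cco-1 RNAi (vertical axis) against that on control RNAi (horizontal axis), log2(CPM + 1) scale, for each gene tested (grey) and for 3 lists; no library is shared between the axes, and the dotted line marks equal differences. Most sperm markers lie near that line, with no called interaction for 49 of 59. Of 139 collagens 76 are higher under cco-1 RNAi while 115 are lower on control RNAi, and most mitochondrial ribosomal proteins lie below the line.

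Markers of other tissues were counted in the same way. Of 14 intestine markers 7 rose and 3 fell, with sums of 10909 to 11016 CPM in N2 and 11664 to 11798 CPM in VC3201. ifb-2 and ifc-2, intermediate filaments of the gut, rose by 0.51 and 0.59, and the peptide transporter pept-1 by 0.52. The 3 markers that fell are not among those named here. Differences in this list ran from -0.90 to 2.23, the highest being that of cpr-1, which is also described above with the lysosomal hydrolases. Of 15 body wall muscle markers 7 rose and 1 fell, with overlapping sums (9308 to 10551 CPM in N2 and 9984 to 10123 CPM in VC3201). Of 13 pharynx markers 8 rose and 1 fell, with a median of 0.34 and sums of 291 to 366 CPM and 436 to 484 CPM that did not overlap. Of 14 hypodermis markers 7 fell and 3 rose, with sums of 1816 to 1889 CPM and 1780 to 1795 CPM, and of 17 neuron markers 5 rose and 2 fell, with sums of 672 to 716 CPM and 738 to 784 CPM. On control RNAi the hypodermis, muscle and pharynx lists held 10, 10 and 6 members that fell and none that rose. All members of these lists averaged 1 CPM or more in both strains under cco-1 RNAi except in the pharynx list, where 11 of 13 did in N2 and 12 in VC3201. The part of tissue composition in the differences above was not tested.

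Growth machinery split between translation and replication. Of 79 cytosolic ribosomal proteins 61 rose (77.2%) and 1 fell, with a median of 0.29, and 55 rose and none fell on control RNAi with a median of 0.24. rps-27 read 804, 865 and 747 CPM in N2 and 1308, 1206 and 1197 CPM in VC3201 (0.62), and rpl-39 read 304, 345 and 281 CPM against 507, 534 and 509 CPM (0.74). For each, the strains did not overlap in either feeding. Of 32 proteasome subunits 17 rose and 2 fell (median 0.14), whereas 28 rose and none fell on control RNAi (median 0.25). The count that rose under cco-1 RNAi was 12 without VC3201 replicate 2 and 22 when libraries were rescaled by their median ratio. Of 24 genes of DNA replication and the cell cycle, 17 fell (70.8%) and 2 rose under cco-1 RNAi, whereas 3 fell and 6 rose on control RNAi, and 18 interactions were negative. cdt-1, which licenses replication origins, read 56.6, 57.7 and 56.9 CPM in N2 and 34.9, 32.9 and 29.7 CPM in VC3201 (-0.80, control -0.39), cyd-1, cyclin D, fell by 0.92, and orc-1 of the origin recognition complex fell from 125, 125 and 123 CPM to 91.0, 88.6 and 86.7 CPM (-0.48, control 0.02).

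Since gene knockdown was used in both groups, genes of RNA interference are reported too. Of 21 tested, 13 fell (61.9%) and 4 rose, against 6 and 5 on control RNAi. rde-10, an amplification factor, read 55.2, 56.3 and 55.8 CPM in N2 and 35.9, 33.2 and 35.4 CPM in VC3201 (-0.66). sid-2, which takes up double-stranded RNA from the gut, read 10.4 CPM in each N2 library and 25.8, 21.002 and 23.1 CPM in VC3201 (1.09, control 0.19).

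**Figure D5:**
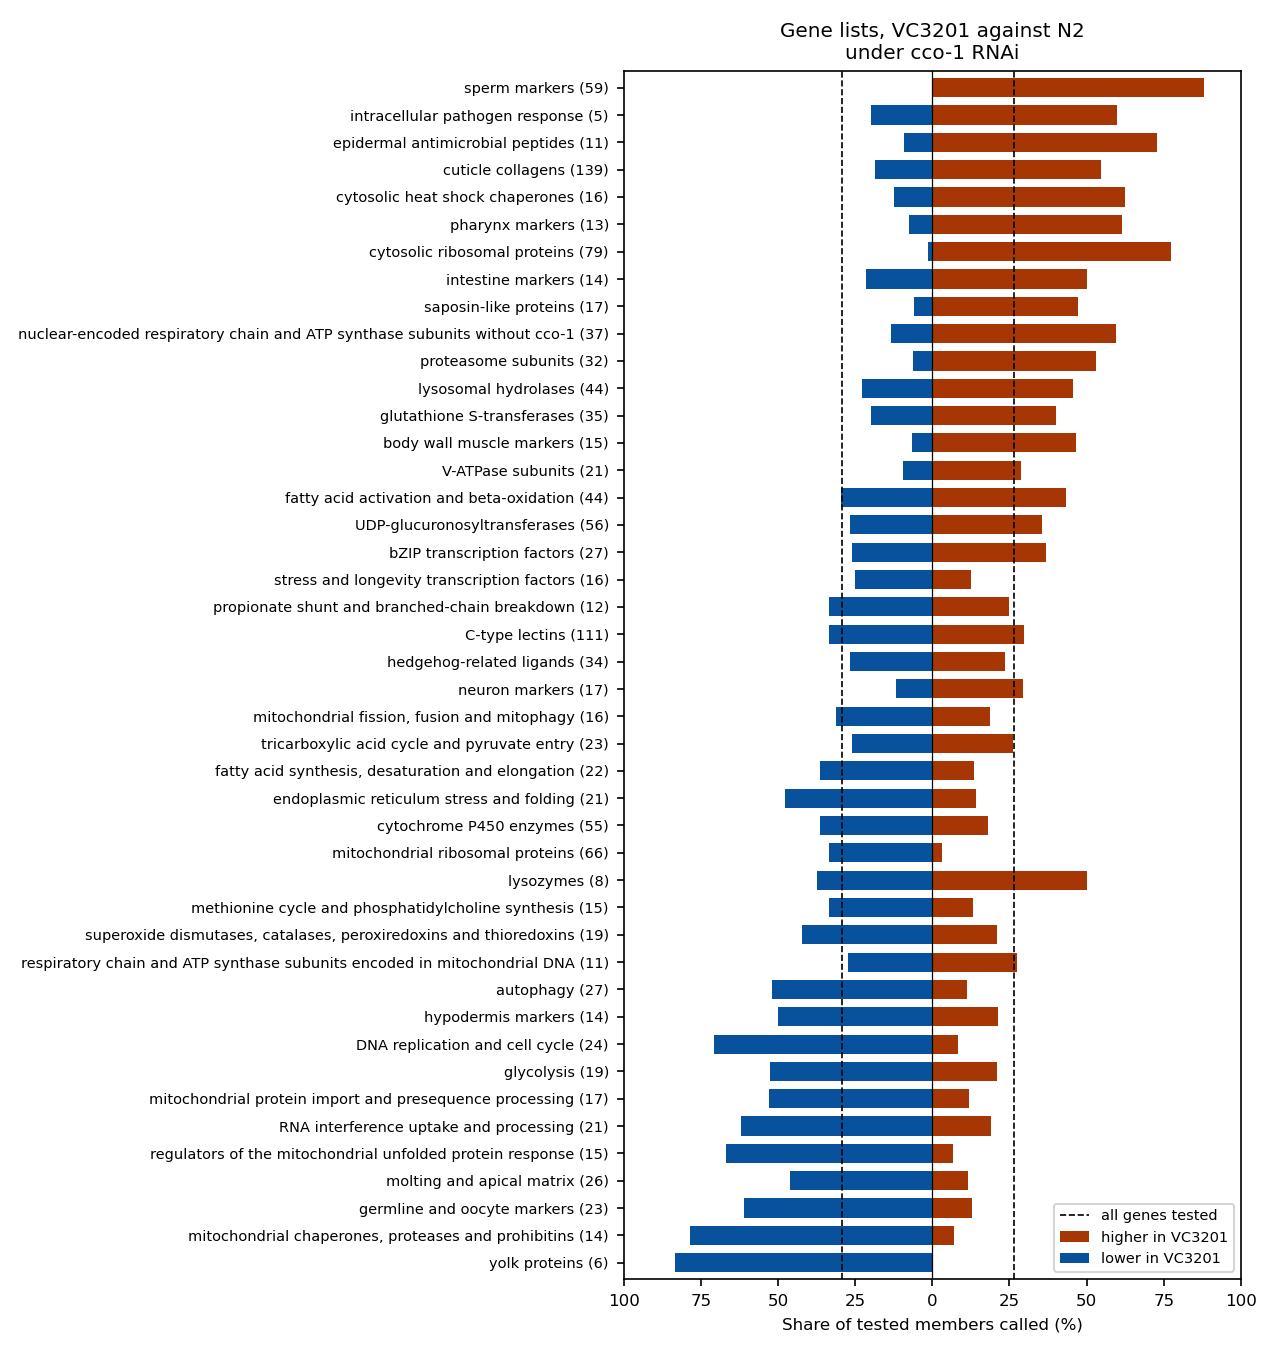
Share of the tested members of each of 44 gene lists that were called higher (right) or lower (left) in VC3201 against N2 under cco-1 RNAi, in percent, with the number tested in parentheses and lists ordered by their median log2 difference. Dashed lines mark all genes tested, 26.6% higher and 29.2% lower; sperm markers and cytosolic ribosomal proteins reach far beyond the line to the right, and mitochondrial chaperones, DNA replication and yolk proteins beyond the line to the left.

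The authors' deposited table lists 719 genes as ATFS-1-dependent, chosen by them on the same 12 libraries: raised by cco-1 RNAi in N2, with a quotient of the VC3201 to the N2 log2 fold change of at most 0.749. The list is therefore no independent evidence of a direction. Of the 658 that were tested here, 298 were lower in VC3201 than in N2 under cco-1 RNAi (45.3%), 115 were higher (17.5%) and 245 were not called. On control RNAi 312 of the 658 were higher in VC3201 (47.4%) and 83 were lower.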

How the data were processed

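PolyA RNA of whole worms was sequenced in 24 libraries of 8 groups, 3 a group, and the 6 libraries of both strains under cco-1 RNAi are compared here. The submitters' processing notes name STAR 2.73a, edgeR 3.24.3 and the build WBcel235 (ce11). For the read counter, the tool is not given in the sources used here. Values as deposited are CPM, and the libraries' sorted values agree within 1% at 52.56% of ranks with equal totals, so they had been quantile-normalized before deposit. Differences are therefore relative within a library. The authors' log2 fold changes and p-values come from Limma-Voom, per the file headers. The authors' ATFS-1 dependency score is the quotient of the cco-1 RNAi log2 fold change in VC3201 to that in N2, per the file headers; these columns served only to describe the authors' list.

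For the tests here, log2(CPM + 1) of all 24 libraries was fitted with group means in limma 3.58.1 (R 4.3.3), with an empirical Bayes trend and 16 residual degrees of freedom. All tests were 2-sided, with Benjamini-Hochberg adjustment over the 14561 genes averaging 1 CPM or more in any of the 8 groups, and a gene was called at an adjusted p under 0.05. The script was tested on simulated data. The design allowed for counts or CPM, and the values called for the CPM form. Folds understate the change of low genes on this scale. Intervals from reads were not given, since reads are known only for tied low values.

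Genes were named by rule: atfs-1, cco-1 and elt-2; the 15 highest and 15 lowest differences among called genes averaging 10 CPM or more in either strain without overlap; up to 4 members with the smallest p of each of 44 lists; the 10 most positive and 10 most negative interactions; and genes with opposite calls and 2-fold differences in both contrasts. All tested members of the mitochondrial chaperone, import and regulator lists were named as well. Genes in the 4-fold set of both contrasts, lin-15A, pmk-1 and pmk-2 were chosen after values were seen. The members and lists were chosen with earlier results of these data known. In the chaperone list hsp-75 replaced trap-1, which in this species names a protein of the endoplasmic reticulum, after values were seen. Gene positions and some names come from the reference annotation of WBcel235. Promoter motifs were not analysed here.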

Additional observations from a re-analysis of the deposited data

Results flagged for a closer look

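The strain difference itself differed between both feedings in many genes. The interaction, tested with limma and Benjamini-Hochberg adjustment, was positive for 2448 genes and negative for 3371, over 3 libraries in each of 4 groups. With median-ratio rescaling the counts were 2730 and 2704, so the excess of negative calls rested on the scaling.

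Among genes averaging 10 CPM or more in 1 of the 4 groups, the most negative interactions on the log2 scale were those of the lectin clec-4 (-4.41), the protease asp-8 (-3.97), F22B3.7 (-3.51) and the lectin clec-17 (-3.43). Y57G11B.5 (-2.92), F09E10.1 (-2.48), B0205.13 (-2.32), F55G11.8 (-2.304), hrg-2 (-2.19), of a heme-responsive family, and F55G11.2 (-2.17) followed. The most positive were those of Y41C4A.11 (3.98), ZK970.7 (3.63), the ATPase catp-3 (3.55), C42D4.3 (3.45), Y47D7A.13 (3.45) and F41F3.3 (3.43). The collagens col-145 (3.41) and col-14 (3.38), the P450 gene cyp-14A5 (3.28) and parg-2 (3.27) completed that side. The cause of these differences was not tested.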

How the results depend on the processing

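Of the 249 named genes called, 245 kept their direction and their call under all 15 alternative settings or as many as could be computed; the exceptions were nduo-5, tomm-7, dve-1 and jmjd-3.1. A minimum 2-fold change left 396 genes higher and 446 lower under cco-1 RNAi, 122 and 427 on control RNAi, and 508 positive and 187 negative interactions. Leaving out 1 library at a time gave 3516 to 3623 higher and 3874 to 4047 lower under cco-1 RNAi, 3364 to 3544 and 2924 to 3085 on control RNAi, and 2265 to 2453 positive and 2972 to 3401 negative interactions. It gave 245 to 249 named genes called, and 441 to 460 higher and 326 to 337 lower members over all lists, against 481 and 355. Reads ranked back from tied low values were a setting chosen after seeing the data. They cover genes ranked in every library of the groups compared, so the set of genes differs between the comparisons. Their fit used only the libraries of the groups compared, each centred on its median, and adjusted p over the ranked genes alone. The main fit used all 24 libraries and adjusted over all genes tested, so the counts differ by more than the reads. The ranked reads called 337 positive interactions against 628 in the main fit among the same genes, and 495 negative against 711. On control RNAi they called 962 against 1441 higher and 791 against 1111 lower. Under cco-1 RNAi the counts were 1120 against 1274 higher and 1102 against 1205 lower. The cause was not tested.

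Median-ratio rescaling, also chosen after seeing the data, gave 4296 higher and 3818 lower under cco-1 RNAi, which turns the balance of directions, and 2730 positive and 2704 negative interactions, which ends the excess of negative ones. With the replicate block the counts were 3893 and 4264. Same-numbered libraries of both strains under cco-1 RNAi correlated at -0.08 to 0.03 in their deviations, and 1 of 3 correlated best with its own number. Between the feedings, same-numbered libraries correlated at -0.03 to 0.10 in N2 and at -0.04 to 0.05 in VC3201. Deviations from means of 3 libraries cannot show whether same-numbered samples were handled together.

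Genes whose small uncalled difference changed sign, with their range over single libraries left out, were cco-1 (-0.091 to 0.038, with 0.0028 without N2 replicate 2), hsp-75 (-0.023 to 0.060), ddp-1 (-0.057 to 0.024), tin-10 (-0.12 to 0.14, with 0.053 without VC3201 replicate 1), ubl-5 (-0.069 to 0.064, with 0.0074 without VC3201 replicate 2) and sphk-1 (-0.090 to 0.025, with 0.016 without VC3201 replicate 3). After rescaling, ddp-1 (0.0058), tin-10 (0.020) and ubl-5 (0.0085) changed sign too. At 17 to 19 reads for 1 CPM under cco-1 RNAi and 8 to 14 on control RNAi, differences in genes near 1 CPM rest on few reads.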
